A study of Homo sapiens with 6 samples.

Results

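The genes described here are named as subunits of the constitutive proteasome and are called subunit genes below. Among them are the assembly chaperones PSMD5, PSMD9 and PSMD10, the PSME activators, and PSMA8 and PSMB11, known from spermatocytes and thymus. All were chosen by symbol: PSMA, PSMB, PSMC, PSMD or PSME followed by digits only. The 3 immunoproteasome genes PSMB8, PSMB9 and PSMB10 were left out. The rule gave 40 of the 19923 genes in the count tables: 8 PSMA, 8 PSMB, 6 PSMC, 14 PSMD and 4 PSME genes. The rule itself used no measured value, but these genes were chosen with earlier results of these data known. The libraries were 6 RNA-seq libraries of Kelly, an established human neuroblastoma cell line that the labels give as MYCN-amplified and of wild-type genotype. Transfection by lipofection was with either control siRNA (siControl, 3 libraries) or an siRNA to METTL3 (siMETTL3, 3 libraries), and cells were collected after 72 hours. METTL3 is the methyltransferase that places N6-methyladenosine (m6A) on mRNA. All libraries come from this 1 line. The treated libraries carry 1 siRNA name in the file headers, and nothing in the labels says whether replicates came from separate cultures, so p-values measure the spread between these libraries, which may be technical.

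The proteasome is the protease that degrades ubiquitin-tagged proteins. Its barrel-shaped core particle has outer rings of alpha subunits (PSMA), which form the gate, and inner rings of beta subunits (PSMB), of which PSMB5, PSMB6 and PSMB7 carry the active sites. A regulatory particle caps the barrel: a ring of ATPases (PSMC) unfolds substrates, and non-ATPase subunits (PSMD) bind ubiquitin, remove it and hold the cap together. PSME genes encode other activators that dock on the same barrel. Cells keep subunit levels in balance, and the transcription factor NFE2L1 raises many subunit genes together when proteasome activity is low.

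Libraries held between 15430000 (siControl replicate 3) and 21565013 (siMETTL3 replicate 2) counts, and the subunit genes took between 0.3597% and 0.4055% of them. METTL3 fell by 39.0%, from 54.2 ± 1.802 to 33.04 ± 1.27 CPM (SD, n = 3; edgeR FDR 4.68e-06). CPM is the usual depth-scaled count, here with TMM-scaled library sizes, and FDR is the Benjamini-Hochberg adjusted p over all 15311 genes tested, with a threshold of 0.05. The METTL3 span overlaps 1 other gene of the table, whose reads can count for it too. All 9 noradrenergic neuroblastoma markers checked, DBH and GATA3 among them, had at least 855 counts in every library. Of the markers of other cell types, PTPRC, CD3E, CDH5, COL1A2, LUM and KRT8 stayed at 8 counts or fewer. PDGFRB, listed as a fibroblast marker, was at 78.4 to 92.7 CPM, and COL1A1, EPCAM, CDH1 and PECAM1 were at lower levels, up to 6.997 CPM. Libraries of a group differed by more than sampling noise: chi-square over its degrees of freedom was 3.05 to 3.75 within siMETTL3 and 5.57 to 16.1 within siControl, where it was highest for replicates 1 and 3.

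After METTL3 knockdown, 19 of the 39 tested subunit genes fell and 0 rose (edgeR quasi-likelihood test). Over all genes tested, 19.2% fell and 18.6% rose (37.8% in either direction). Of the 3148 genes whose average level lay between the lower and the upper quartile of the subunit genes, 26.3% fell. Among the subunit genes 33 had a negative log2 fold change, with a median of -0.16 against -0.0021 over all genes tested. The shifts were small, from -0.58 (PSMA8) to 0.22 (PSME1, not past the threshold) on the log2 scale, with standard errors (SE) between 0.052 and 0.15. No subunit gene was higher at an unadjusted p under 0.05 either, where 3483 of all 15311 genes tested were. None was called higher in DESeq2 or limma-voom, where 17.8% and 18.8% of all genes were. DESeq2 called 17 subunit genes lower (17.9% of all genes), all of them among the 19. Without siControl replicate 3, which had the lowest total count, 3 were called higher (PSME1, PSMD12 and PSME4; 19.8% of all genes). The number called lower was 12 without siMETTL3 replicate 1 (13.7% of all genes) and 22 without siControl replicate 1 (20.8%). It was 21 with the replicate number as a block (20.4%), and 16 of the 26 tested genes that overlap no other gene, in a fit to such genes only (19.9%). In bulk RNA, a change in the amount of RNA per cell and a change in the mix of cells cannot be told apart, and all values are relative to the other genes of the library.

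**Figure D1:**
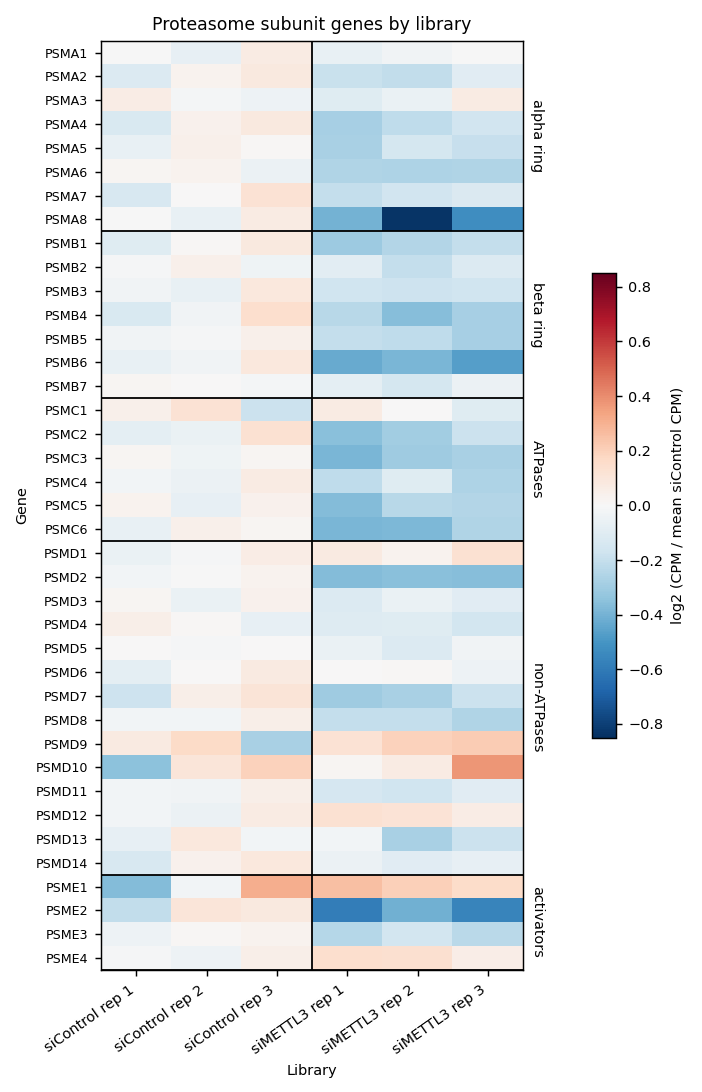
Level of the 39 tested subunit genes (rows, by class) in the 6 libraries (columns), as log2 of CPM over the mean siControl CPM of that gene; blue is lower and red is higher. Most rows of the core particle and of the ATPases are blue in all 3 siMETTL3 libraries, while PSMD1, PSMD12 and PSME4 are pale red there.

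Per library, the median subunit gene stood at -0.032, -0.0036 and 0.052 in siControl replicates 1 to 3, as log2 relative to its own siControl mean. It stood at -0.19, -0.17 and -0.17 in siMETTL3 replicates 1 to 3. The siControl libraries thus differed among themselves, with replicate 3 highest, and all 3 siMETTL3 libraries lay below all of them. The summed level of the 39 genes was 3916, 4015 and 4152 CPM in siControl and 3576, 3586 and 3629 CPM in siMETTL3. The mean difference in this sum was -10.7%, and -12.5% for the genes whose span overlaps no other gene of the table. The ratio of summed core to summed regulatory particle CPM was 0.786 to 0.814 in siControl and 0.771 to 0.788 in siMETTL3, so the groups overlapped in this ratio. Both sums are dominated by the most abundant genes.

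Gene by gene, all 3 siMETTL3 values lay below all 3 siControl values for 24 of 39 subunit genes, and above them for 1, PSME4. Over all genes tested these shares were 25.1% and 24.8%.

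**Figure D2:**
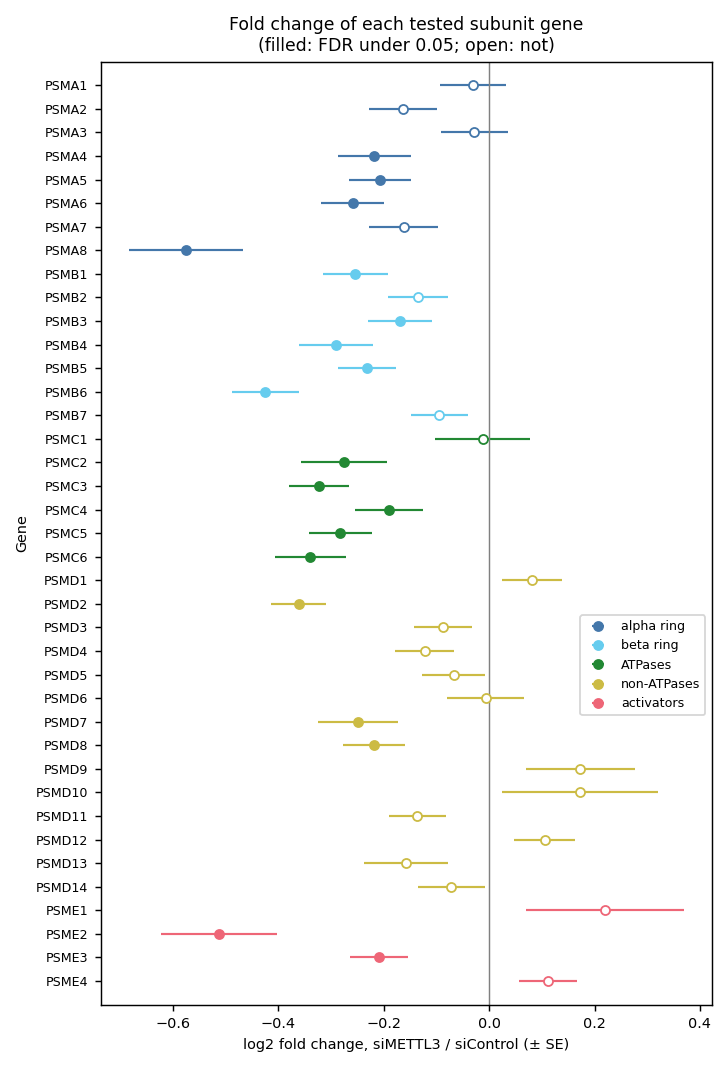
Log2 fold change of siMETTL3 over siControl for each tested subunit gene (points, bars ± SE, colours by class); filled points passed an edgeR FDR of 0.05. The 19 filled points all lie left of 0, and the PSMD genes are spread on both sides of it.

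Promoters of 35 of the 40 genes were found in the RefSeq table (build GRCh38.p14, 250 bases before to 50 after the start). PSMA7, PSMB1, PSMB6, PSMB7 and PSMD4 had no entry. Each was searched on both strands for TGACNNNGC, the core of the antioxidant response element that NFE2L1 and NFE2L2 bind, for CCAAT, the box bound by NF-Y, and for CACGTG, an E-box that MYC family proteins bind; the motifs do not overlap one another in the sequences printed. Below are the 250 bases before the start of 3 genes, with matches in capitals. PSMB3 is a core subunit gene that fell, though its call held in only 9 of 18 fits, and the one fallen gene with matches to all 3 motifs. PSMC3 is an ATPase gene that fell and holds only CCAAT, and PSMD12 is a regulatory particle gene that was not past the threshold and holds only the response element core. They lie at chr17:38752491-38752740 (plus strand), chr11:47426440-47426689 (minus strand) and chr17:67366578-67366827 (minus strand).
PSMB3: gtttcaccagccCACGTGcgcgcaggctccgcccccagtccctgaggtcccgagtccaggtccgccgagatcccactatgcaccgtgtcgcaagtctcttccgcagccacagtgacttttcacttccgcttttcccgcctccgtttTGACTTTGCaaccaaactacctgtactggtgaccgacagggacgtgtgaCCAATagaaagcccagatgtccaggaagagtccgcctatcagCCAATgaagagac
PSMC3: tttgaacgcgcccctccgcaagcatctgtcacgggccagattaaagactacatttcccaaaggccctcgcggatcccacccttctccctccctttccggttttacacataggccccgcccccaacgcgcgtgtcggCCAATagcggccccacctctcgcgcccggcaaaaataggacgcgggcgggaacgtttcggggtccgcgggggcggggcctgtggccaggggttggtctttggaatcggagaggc
PSMD12: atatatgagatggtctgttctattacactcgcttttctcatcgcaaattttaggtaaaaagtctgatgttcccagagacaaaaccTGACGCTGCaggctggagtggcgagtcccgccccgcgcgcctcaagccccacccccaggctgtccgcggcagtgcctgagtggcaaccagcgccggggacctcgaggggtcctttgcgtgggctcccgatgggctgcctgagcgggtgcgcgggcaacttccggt

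In PSMB3 the capitals are, from left to right, the E-box, the response element core and a pair of CCAAT boxes. The response element core was present in 10 of 35 subunit gene promoters (28.6%), against 13.6% of all 27305 promoters of the table and 14.7% of those of tested genes. CCAAT was present in 16 (45.7%), against 35.7% of all promoters and 36.3% of those of tested genes. The E-box was present in 3 (8.57%), which lies between 7.42% of all promoters and 9.63% of those of tested genes. For comparison, 19.2% of all genes tested fell, and 26.3% of genes in the subunit genes' range of levels. Of the 10 genes with the response element core, 3 fell (PSMB3, PSMC4 and PSME2). The PSMB3 and PSMC4 calls held in only 9 and 11 of 18 fits. The median log2 fold change of the 10 genes was 0.0072. Of the 24 tested genes without it, 14 fell, with a median of -0.21. With CCAAT, 8 of 15 tested genes fell (median -0.17), and without it 9 of 19 fell (median -0.16). Differences between genes with and without a motif were not tested. A match says only that these letters are in the window.

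In the alpha ring the median log2 fold change was -0.19. Of 8 genes, 4 fell, against 19.2% of all genes tested. All 8 had a negative value, as did 7695 of all 15311 genes tested. PSMA6 (chromosome 14, 35278633 to 35317493, plus strand), a ring subunit, was at 73.8, 74.4 and 70.2 CPM in the siControl libraries and at 61.0, 60.5 and 61.0 CPM in the siMETTL3 libraries. The groups were well apart, and the siMETTL3 libraries were almost equal. PSMA6 fell by 16.4% (log2 fold change -0.26, SE 0.059, edgeR FDR 0.00370). PSMA5 fell by 13.4% (edgeR FDR 0.0136) and PSMA4 fell by 14.02% (edgeR FDR 0.0231). Both were lost without siControl replicate 2 or siMETTL3 replicate 1, and PSMA4 also without siMETTL3 replicate 2 (adjusted p up to 0.0876 for PSMA5 and 0.113 for PSMA4).

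PSMA8 (chromosome 18, 26133852 to 26193355, plus strand) encodes a variant of PSMA7 known from spermatocytes. It had 27.6, 26.5 and 29.1 CPM in siControl and 21.0, 15.6 and 19.2 CPM in siMETTL3. It fell by 32.9%, the largest change among the tested subunit genes (log2 fold change -0.58, SE 0.11, edgeR FDR 0.000926). Its counts, 339 to 595 per library, come from a span of 59.5 kb for an mRNA of 1794 nt, and whether they come from spliced mRNA was not tested. PSMA7, its widely expressed counterpart, went from 181 ± 15.9 to 162 ± 4.33 CPM and did not pass the threshold (log2 fold change -0.16, SE 0.066, edgeR FDR 0.0676). PSMA2 was close to it as well (-0.16, edgeR FDR 0.0595), and PSMA1 and PSMA3 were near 0 (-0.030 and -0.028). PSMA2, PSMA3 and PSMA6 each lie almost wholly or wholly within the span of another gene of the table, whose reads are counted for them too.

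In the beta ring, the 7 tested genes all lay lower in every siMETTL3 library than in any siControl library. The share of all genes tested that did so was 25.1%. Of these 7 genes, 5 fell, against 19.2% of all genes tested, and their median log2 fold change was -0.23. None of the 7 overlaps another gene. PSMB6 (chromosome 17, 4796144 to 4798502, plus strand), the subunit with caspase-like activity, stood at 80.8, 82.5 and 89.995 CPM in siControl. In siMETTL3 it stood at 62.9, 64.4 and 61.2 CPM, well below. It fell by 25.5% (log2 fold change -0.42, SE 0.063, edgeR FDR 0.000162).

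PSMB5 (chromosome 14, 23016543 to 23035230, minus strand), which carries the chymotrypsin-like site, the target of bortezomib, was at 136.6, 138.9 and 143.8 CPM in siControl and 121.6, 120.2 and 115.1 CPM in siMETTL3. It fell by 14.8% (log2 fold change -0.23, SE 0.055, edgeR FDR 0.00460). PSMB7 (chromosome 9, 124353465 to 124415444, minus strand), with the trypsin-like site, went from 157 ± 1.98 to 147 ± 5.08 CPM and did not pass the threshold (log2 fold change -0.0945, SE 0.054, edgeR FDR 0.190). The catalytic genes PSMB5, PSMB6 and PSMB7 thus shared a direction with log2 values from -0.42 to -0.0945; differences between them were not tested. Of the non-catalytic beta genes, PSMB4 fell by 18.3% (edgeR FDR 0.00507), PSMB1 by 16.1% (edgeR FDR 0.00582) and PSMB3 by 11.1% (edgeR FDR 0.0420), and PSMB2 did not pass (log2 fold change -0.14, edgeR FDR 0.0765). PSMB4 was the most spread of them in siControl, at 145.2, 155.3 and 175.3 CPM. PSMB3 was past the threshold in 9 of 18 fits. It was lost in DESeq2, with upper-quartile or total-count scaling, with the span offset and without any 1 library other than siControl replicate 1 (adjusted p 0.0286 to 0.156 over all fits). PSMB11, the thymus-specific beta subunit, had between 0 and 2 counts in every library and was not tested.

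Immunoproteasome subunits replace the catalytic ones in cells exposed to interferon: PSMB8 takes the place of PSMB5, PSMB9 that of PSMB6 and PSMB10 that of PSMB7. PSMB8 had 3 counts over the siControl libraries and 0 over the siMETTL3 libraries, and PSMB9 had 3 and 2. Both were too low to test. PSMB10 was at 14.4, 14.7 and 12.9 CPM in siControl and 13.2, 9.69 and 10.8 CPM in siMETTL3. These ranges overlapped, and PSMB10 did not pass the threshold (log2 fold change -0.32, SE 0.13, edgeR FDR 0.0622); 64.1% of its span overlaps another gene.

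**Figure D3:**
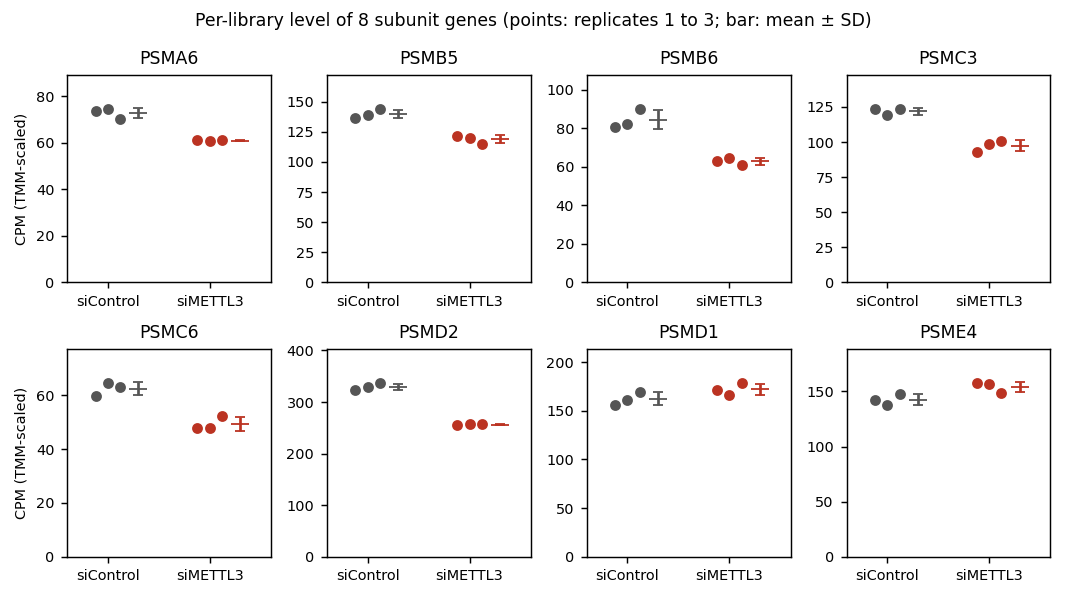
CPM in each library for 8 subunit genes (points, siControl grey and siMETTL3 red; bars, mean ± SD over 3 libraries; axes start at 0). PSMA6, PSMB5, PSMB6, PSMC3, PSMC6 and PSMD2 are lower in every siMETTL3 library, PSMD1 overlaps between the groups, and PSME4 is slightly higher in siMETTL3.

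The ATPase genes, whose products form a hexamer and thread substrates into the core, had the lowest class median, -0.28. Of 6 genes, 5 fell (83.3%, against 19.2% of all genes tested and 26.3% of genes in the subunit genes' range of levels). PSMC6 (chromosome 14, 52707178 to 52728590, plus strand) was at 59.6, 64.4 and 63.2 CPM in siControl and 47.7, 47.9 and 52.3 CPM in siMETTL3. It fell by 21.0% (log2 fold change -0.34, SE 0.067, edgeR FDR 0.00133). PSMC3 (chromosome 11, 47418769 to 47426473, minus strand), whose promoter is printed above, was at 123.2, 119.1 and 123.4 CPM in siControl and 93.1, 98.7 and 100.5 CPM in siMETTL3. The gap between the groups was larger than the range within either, and PSMC3 fell by 20.05% (log2 fold change -0.32, SE 0.057, edgeR FDR 0.000581).

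PSMC5 fell by 17.8% (edgeR FDR 0.00207), PSMC2 by 17.3% (edgeR FDR 0.0166) and PSMC4 fell by 12.4% (edgeR FDR 0.0314). PSMC4 was past the threshold in 11 of 18 fits, and was lost in DESeq2, with total-count scaling, with the span offset, and without replicate 2 or 3 of siControl or replicate 1 or 3 of siMETTL3 (adjusted p 0.0225 to 0.136 over all fits). PSMC2 was lost without replicate 1 or 2 of siMETTL3 (up to 0.0877). PSMC5 and PSMC2 share 58.7% and 66.3% of their spans with FTSJ3 and SLC26A5 on the opposite strand, and the counting set no strand option. PSMC1 was the exception, at 34.7, 36.7 and 29.6 CPM in siControl and 35.3, 33.7 and 31.4 CPM in siMETTL3 (log2 fold change -0.012, SE 0.090, edgeR FDR 0.931). It has 13 annotated pseudogenes in GENCODE release 44, the most of any subunit gene, and overlaps NRDE2 over 40.05% of its span. How these bear on its counts was not tested.

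Of the 14 non-ATPase genes, 3 fell (21.4%, near the 19.2% of all genes tested), 10 had a negative log2 fold change and the median was -0.080. The 14 include 3 assembly chaperones, of which 0 fell. Of the 3 base genes 1 fell, and of the 8 lid genes 2 fell. In the base of the cap, PSMD2 (chromosome 3, 184299198 to 184309050, plus strand), the large scaffold to which ubiquitin shuttle proteins dock, had the highest CPM of all subunit genes. It was at 323.6, 328.6 and 336.0 CPM in siControl and 255.1, 257.3 and 256.9 CPM in siMETTL3. With spreads this small, it fell by 22.1% with the lowest FDR of the subunit genes (log2 fold change -0.36, SE 0.052, edgeR FDR 0.000124). PSMD1 (chromosome 2, 231056864 to 231172827, plus strand), the other large scaffold of the base, was at 156.3, 161.4 and 169.6 CPM in siControl and 171.5, 166.0 and 178.0 CPM in siMETTL3. Its groups overlapped (log2 fold change 0.081, SE 0.057, edgeR FDR 0.285). PSMD4, a ubiquitin receptor, did not pass the threshold (log2 fold change -0.12, edgeR FDR 0.10004).

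In the lid, PSMD7 fell by 15.8% (edgeR FDR 0.0202) and PSMD8 fell by 14.1% (edgeR FDR 0.0101). The PSMD7 call was lost without siControl replicate 2 or replicate 1 or 2 of siMETTL3 (adjusted p up to 0.0944). PSMD7 encodes the inactive partner of PSMD14, the enzyme that removes ubiquitin from substrates. PSMD14 itself was at 109.2, 122.7 and 127.6 CPM in siControl and 115.7, 111.9 and 114.2 CPM in siMETTL3, with overlapping groups (log2 fold change -0.072, SE 0.064, edgeR FDR 0.411). PSMD11, PSMD13, PSMD3 and PSMD6, which encode structural lid subunits, had log2 fold changes of -0.14, -0.16, -0.089 and -0.0070, none past the threshold. PSMD12 (log2 fold change 0.11, SE 0.058, edgeR FDR 0.170) was at 109.0, 107.1 and 116.6 CPM in siControl and 121.4, 120.4 and 115.8 CPM in siMETTL3, where 1 siControl library reached into the siMETTL3 range.

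PSMD5, PSMD9 and PSMD10 encode chaperones that help to assemble the base and are not part of the finished particle. None passed the threshold, with log2 fold changes of -0.067, 0.17 and 0.17. PSMD5 was at 62.4, 60.0 and 63.6 CPM in siMETTL3, just below its siControl values of 64.6 to 65.2 CPM. PSMD9 and PSMD10 were spread in siControl, with standard deviations of 15.3% and 19.04% of the mean. PSMD9 lies almost wholly within another gene of the table.

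The activator genes went different ways. PSME1 and PSME2 encode partner subunits of one interferon-inducible ring. PSME2 (chromosome 14, 24143362 to 24147570, minus strand) was at 17.7, 21.9 and 21.6 CPM in siControl and 13.6, 15.3 and 13.8 CPM in siMETTL3. It fell by 29.9% (log2 fold change -0.51, SE 0.11, edgeR FDR 0.00245). PSME1 was at 8.21, 10.4 and 13.1 CPM in siControl and 12.6, 12.2 and 11.8 CPM in siMETTL3, with the siMETTL3 values inside the siControl range (log2 fold change 0.22, SE 0.15, edgeR FDR 0.273). Without siControl replicate 3 it was called higher (log2 fold change 0.39, edgeR FDR 0.0212). PSME2 has 6 annotated pseudogenes, and 21.1% of its span overlaps RNF31.

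PSME3 encodes the nuclear homologue of that ring and was the more abundant activator gene. It fell by 13.5%, from 197 ± 5.55 to 170.04 ± 5.39 CPM (log2 fold change -0.21, SE 0.055, edgeR FDR 0.00834). Its call was lost without siMETTL3 replicate 1 (adjusted p up to 0.0571). On the opposite strand, BECN1 overlaps 46.3% of the PSME3 span, and reads there can count for both genes. PSME4 encodes a large single-chain nuclear activator. It was at 141.7, 138.1 and 147.7 CPM in siControl and 157.1, 156.3 and 148.3 CPM in siMETTL3. The groups were apart by less than 1 CPM and the difference did not pass the threshold (log2 fold change 0.11, SE 0.056, edgeR FDR 0.133). PSME4 was called higher without siControl replicate 3 (log2 fold change 0.14, edgeR FDR 0.0420), as was PSMD12 (0.14, edgeR FDR 0.0424).

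Levels of different subunit genes can be compared only per length. CPM per kb of the canonical GENCODE release 44 mRNA ran from 7.67 (PSMC1) to 188 (PSMA7) in siControl among the 31 structural core and cap genes, with a median of 65.9. PSMA7, PSMB4, PSMB7, PSMB1 and PSMB5 were the highest, at 188 ± 16.6, 173 ± 16.7, 160 ± 2.01, 143 ± 9.27 and 134 ± 3.51 CPM per kb. PSMA7 stood above PSMB4 in every library of both groups. In siControl it was at 171.6, 188.9 and 204.8 against 158.1, 169.1 and 191.0 CPM per kb. PSMB4 stood above PSMB7 in siControl replicates 2 and 3 and below it in replicate 1. Differences between genes were not tested. In siMETTL3 the same 5 genes led, at 168 ± 4.50, 141 ± 6.15, 149.8 ± 5.17, 119.5 ± 4.39 and 114 ± 3.28 CPM per kb, and PSMB7 stood above PSMB4. The counts cover whole gene spans, introns and overlapping genes included, while the length is that of the spliced mRNA. For PSMB7, for example, the span is 61.98 kb and the mRNA 984 nt. How far this moves the levels and their order was not tested. Which isoforms Kelly cells use is not known from these tables.

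**Figure D4:**
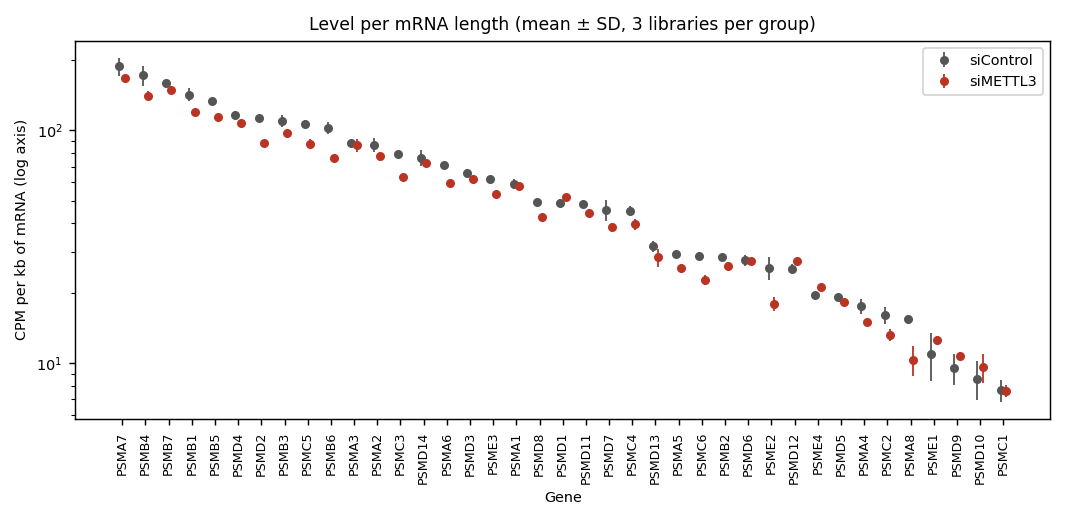
CPM per kb of canonical mRNA (log axis, mean ± SD over 3 libraries) for the 39 tested subunit genes, ordered by their siControl mean. The order is similar in both groups, and PSMB6, PSMC3, PSMD2, PSMC6, PSMA8 and PSME2 show the visible gaps.

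The counted feature was the whole gene span, introns included, and the fold change was related to its length. The 19 genes that fell had a median span of 11.5 kb, and the 20 others 27.3 kb. Across the 39 tested genes the Spearman correlation of log2 fold change with span was 0.38 (Pearson 0.29 with log10 span). Over all genes tested it was 0.18 (Pearson 0.13). These are correlations across genes, which share libraries and are not independent replicates. The 4 subunit genes with spans over 100 kb, PSMA1, PSMD1, PSMD14 and PSME4, were all among those that did not pass. With an offset for span length, chosen after the data had been seen, 16 subunit genes fell and 0 rose, against 19.7% and 17.6% of all genes, and 13 of the 19 calls remained. PSMA4, PSMB3, PSMB4, PSMC4, PSMD7 and PSMD8 were no longer past the threshold. The log2 fold changes of PSME4 and PSMD1 were then 0.043 and 0.014. PSMB7 (-0.15, edgeR FDR 0.0316), PSMB2 (-0.17, edgeR FDR 0.0281) and PSMD11 (-0.16, edgeR FDR 0.0318) were called lower with it.

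**Figure D5:**
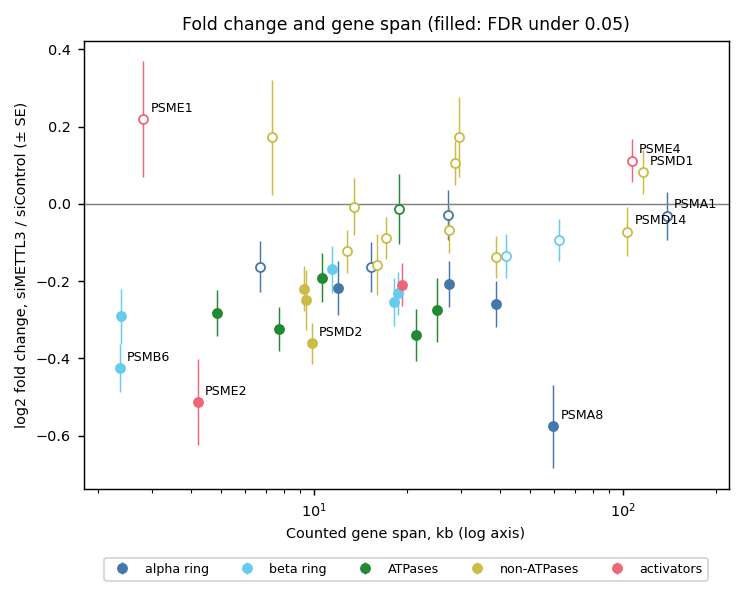
Log2 fold change (± SE) against the length of the counted gene span in kb (log axis) for the 39 tested subunit genes, coloured by class; filled points passed an edgeR FDR of 0.05. The 4 genes with spans over 100 kb lie between -0.072 and 0.11 and are open.

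GGACT, one of the sequences in which the METTL3 complex places m6A, occurred 0 to 9 times in the canonical mRNAs of the subunit genes. The median density was 1.21 per kb in the genes that fell and 0.757 per kb in the tested genes that did not pass, against 0.9285 per kb over tested genes with a transcript. m6A itself was not analysed here, so which of these mRNAs carry it is not known from these counts.

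Genes that act with the proteasome were listed as context. Of the 11 genes of the list of ubiquitin, E1 enzymes and the VCP segregase, 7 fell and 0 rose in edgeR. Of all genes tested, 19.2% fell and 18.6% rose. No gene of the list was higher at an unadjusted p under 0.05 or in DESeq2. Over all 15311 genes tested, 3483 were higher at that unadjusted p, and 17.8% were called higher in DESeq2. Without siControl replicate 2, 4 fell (2228 of 15495 genes tested). The count was also 4 without siMETTL3 replicate 1 (13.7% of all genes). Without siControl replicate 1, 1 rose (3178 of 15476 genes tested). UBB, a polyubiquitin gene, fell by 25.6% (edgeR FDR 0.000545). RPS27A, a fusion of ubiquitin with a ribosomal protein, fell by 25.03% (edgeR FDR 0.000611). Its span overlaps another gene of the table, whose reads can count for it too. The median of the list was -0.18.

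Of 9 genes that control NFE2L1 and NFE2L2 or are those factors, 4 fell and 0 rose, against 19.2% and 18.6% of all genes tested. MAFK was higher at an unadjusted p under 0.05, and 0 were called higher in DESeq2. NFE2L1 itself was at 154 ± 11.4 and 145 ± 4.03 CPM and did not pass the threshold (log2 fold change -0.083, SE 0.062, edgeR FDR 0.320), nor did NFE2L2 (-0.12, edgeR FDR 0.0893). SYVN1, a ubiquitin ligase of the endoplasmic reticulum that turns NFE2L1 over, fell by 25.4% (edgeR FDR 7.90e-05), and NGLY1, the glycanase that trims NFE2L1, fell by 20.02% (edgeR FDR 0.00404). BACH1, a repressor at antioxidant response elements, fell by 14.4% (edgeR FDR 0.00589). SYVN1, NGLY1 and BACH1 overlap other genes of the table, and the remaining gene of this list that fell does not.

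Among 18 receptors and regulators of the proteasome, 5 fell and 1 rose, with a median of -0.092. The 27.8% that fell compares with 19.2% of all genes tested and with 26.3% of genes in the subunit genes' range of levels, and 18.6% of all genes rose. DDI2, the protease that cleaves NFE2L1 into its active form, fell by 30.1%, from 90.8 ± 1.47 to 63.4 ± 2.44 CPM (log2 fold change -0.52, SE 0.059, edgeR FDR 1.78e-05). FBXO7, an F-box protein that binds the proteasome inhibitor PSMF1, fell by 29.9% (edgeR FDR 7.98e-05). USP14, a deubiquitinase docked on PSMD2, was the gene of this list that rose, from 65.0 ± 3.87 to 80.9 ± 3.07 CPM (log2 fold change 0.32, SE 0.065, edgeR FDR 0.00162), in the opposite direction to its docking subunit. DDI2 and USP14 each overlap another gene. Of 7 assembly chaperones outside the PSMD genes, 1 fell, PSMG1 (log2 fold change -0.29, edgeR FDR 0.0227), and 0 rose. The share that fell was 14.3%, against 19.2% of all genes tested, of which 18.6% rose. None was higher at an unadjusted p under 0.05 or in DESeq2. The list median was 0.058. PSMG1 did not pass the threshold once siControl replicate 3 was left out, nor without replicate 1 or 3 of siMETTL3, and over all fits its adjusted p ran from 0.00721 to 0.1102. POMP, which matures the core particle, was at 41.02 ± 2.80 and 42.7 ± 2.47 CPM and did not pass the threshold (edgeR FDR 0.572).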

How the data were processed

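The 6 libraries were made from poly(A)-selected RNA, per the labels' protocols. Per the file headers, the deposited values are raw read counts per gene, made by the authors with featureCounts 1.5.3 on a GENCODE release 33 protein-coding annotation, over whole gene spans, with reads over several genes counted for each, and with no strand or fragment option. The submitters' processing notes also name FastQC 0.11.5, Trimmomatic 0.36, HISAT2 2.1.0 and build GRCh38. Of the 40 subunit genes, 13 overlap another gene of the table and can share reads with it; antisense partners cannot be told apart. Coordinates are those of the tables, 1-based.

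Counts were filtered with filterByExpr and scaled by TMM, and siMETTL3 was compared with siControl by edgeR 4.0.16 (R 4.3.3) in robust quasi-likelihood F-tests over 15311 genes with all 6 libraries and no covariate; 39 subunit genes were tested. SE is the absolute log2 fold change over the square root of F. The pipeline was also run on simulated data in which far fewer genes changed than were called here, and no result above rests on that run. Alternatives were other scalings, other filters, DESeq2 1.42.0, limma-voom (limma 3.58.1), no robust option, the replicate block and each library left out. Others were genes without overlaps plus METTL3, and a span-length offset added later. All subunit genes are named, with up to 3 genes of each context list by lowest FDR. Some genes of the context and marker lists are not reported here. The subunit genes and lists were chosen with earlier results of these data known. Canonical mRNAs (GENCODE release 44) were found for all 40 genes, all of whose spans overlap the release 44 gene of that symbol.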

Additional observations from a re-analysis of the deposited data

How the results depend on the processing

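With all 6 libraries kept, 397 of 416 alternative values of single subunit genes stayed on their side of the threshold, 11 lost it and 8 gained it. With 1 library removed, 206 of 234 stayed, 20 lost it and 8 gained it. The direction of called values was reversed in 0 cases. Of the 19 calls, 10 held in every fit that included the gene: PSMA6, PSMA8, PSMB1, PSMB5, PSMB6, PSMC3, PSMC5, PSMC6, PSMD2 and PSME2. With each library removed in turn, between 12 and 22 subunit genes fell and between 0 and 3 rose. Class medians then ran from -0.23 to -0.15 (alpha ring) and from -0.31 to -0.24 (ATPases). Lower calls ran from 0 to 1 among assembly chaperones and for PSMB10 among immunoproteasome genes, and from 4 to 7 in the ubiquitin list. Higher calls ran from 1 to 2 among regulators and receptors and from 0 to 1 in the ubiquitin list. In the fit to genes that overlap no other gene, with METTL3 kept in, 9518 were tested, 1852 rose and 1898 fell. In that fit the medians were -0.23 (alpha ring) and -0.34 (ATPases), no activator gene was left, and with fewer genes tested the counts were 3 lower and 0 higher among regulators and receptors, 1 lower in the NFE2L1 and NFE2L2 list and 3 lower in the ubiquitin list. With the span offset, an alternative added after seeing the data, the medians were -0.17 (beta ring) and -0.21 (ATPases), assembly chaperones had 1 higher and 0 lower call, and the NFE2L1 and NFE2L2 list had 1 higher call; the cause was not tested.

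The labels do not say that replicate numbers mark pairs, and the main fit did not pair them. Deviations from the group means correlated at 0.040 to 0.067 between libraries of the same number and at -0.064 to 0.026 otherwise. These correlations were small, and all 6 libraries correlated best with their own number. With the replicate block, 6166 genes and 21 subunit genes were called, and PSMB10 gave 1 lower call in its list. Depth limits PSMB8, PSMB9 and PSMB11, which had 3 counts or fewer in every library.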
